A study of Mus musculus with 8 samples.

Results

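Expression in 2 Eμ-Myc lymphoma cell lines was compared under the BET inhibitor JQ1, line 1.2 against line 1.1. The members were the 4 libraries labelled JQ1, 2 of each line, of 8 in the series, and the 12413 of 43629 genes that passed a filter on low counts. Both lines came from C57BL/6 mice with the Eμ-Myc transgene, in which the heavy chain enhancer drives Myc in B lineage cells and lymphoma follows. Early passage cells had been cultured for 2 h with 250 nM JQ1 (2 libraries of line 1.1 and 2 of line 1.2) or with its solvent DMSO (2 of each line). All groups therefore share the transgene, and the counts do not separate transgene from endogenous Myc transcripts. Each line is a single line, so a difference between them is one between these lines and not between kinds of lymphoma. Since no label says that replicates came from separate cultures, p-values cover only the spread among these libraries, possibly a technical one. In such bulk RNA fewer cells with a transcript and less of it per cell cannot be told apart.

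JQ1 displaces bromodomain proteins of the BET family from acetylated histones and thereby alters transcription at many enhancers and promoters. Lymphoma lines of one genotype still differ from each other. A line can stem from a B lineage cell with its own light chain rearrangement and carry mutations gained beside the Myc transgene. No label gives the origin of the lines compared here. Whether they stem from separate cells was not tested. B cells assemble the light chain of their receptor from a V, a J and a constant gene at the kappa locus or the lambda locus. In a line difference under drug, what distinguishes the lines in any medium and what distinguishes their response to the drug are added together. The DMSO libraries, measured in the same way, give the first of these, and the interaction of line and drug gives the second.

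The 4 JQ1 libraries held 11182756 to 12327717 reads in genes (10347453 to 13049877 over all 8), and 17466 to 17738 genes had at least 1 read. B cell genes were abundant in all of them, with Cd79a at 340 to 383 CPM and Ighm at 1555 to 1838 CPM, where CPM, the usual scaled count, is a gene's share of a library's reads after scaling. Most markers of other cell types were low. None of 12 NK cell markers passed the filter, and their summed level was 0.083 to 0.26 CPM. Of 21 T cell markers 4 passed, with sums of 12.1 and 14.5 CPM in line 1.1 and 9.24 and 10.6 CPM in line 1.2, and Cd3e, Cd3g and Cd4 had 0 reads in all 4 libraries. Of 18 myeloid markers 4 passed, with sums of 11.6 to 15.4 CPM, of 13 erythroid markers 1, with sums of 1.28 to 1.94 CPM, and of 16 stromal markers 4, with sums of 384 and 385 CPM in line 1.1 and 345 and 344 CPM in line 1.2, most of it Vim, the vimentin gene that lymphocytes also express (mean 342 CPM). Among all these Cd6, Bcl11b and the keratin gene Krt18 were called. The library line 1.2 JQ1 replicate 2 stood apart in Gm42418, a gene model that overlaps ribosomal RNA sequence, at 2644 CPM against 1296 CPM in its replicate and 475 and 493 CPM in line 1.1.

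Under JQ1 the lines differed in a limited set of genes, and most of these differences were small. Of 12413 genes tested, 795 passed an adjusted p of 0.05 in edgeR's quasi-likelihood test (6.4%), 433 higher in line 1.2 (3.49%) and 362 lower (2.92%). Among them 69.1% differed by less than 1.5-fold, and 136 (1.1% of all genes) by at least 2-fold, 82 higher and 54 lower. Over the 9286 genes that averaged 5 CPM or more, the median absolute difference was 0.09 (log2) between the lines, against 0.064 and 0.066 between the replicates of line 1.1 and of line 1.2. Libraries of the lines that do not overlap were common, in 6648 of the 12413 genes (53.6%), so a lack of overlap does not set a gene apart. The share of 6.4% is the one to set beside the counts of called list members below.

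The number of calls depended on single libraries. It was 281, 351, 282 and 436 without line 1.1 JQ1 replicate 1, line 1.1 JQ1 replicate 2, line 1.2 JQ1 replicate 1 and line 1.2 JQ1 replicate 2, and it was 1524 and 1538 without line 1.1 DMSO replicate 1 or 2, a pair whose counts differed most among the replicate pairs (chi-square per degree of freedom 3.96, against 1.34 to 2.08 for the other pairs). Of the 795 calls, 203 (25.5%) were still called whichever JQ1 library was left out, and of the 136 calls of at least 2-fold, 79 (58.1%) were. These 203 genes are called stable below. With the Gm42418 level as a covariate 343 genes were called, of which 231 were among the 795.

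The same comparison in DMSO, which shares no library with the one under JQ1, gave 840 calls (6.77%), 446 higher in line 1.2 (3.59%) and 394 lower (3.17%). In both media 337 genes were called in the same direction, which is 42.4% of the JQ1 calls and 40.1% of the DMSO calls. Of the 136 calls of at least 2-fold, 102 were also called in DMSO. Over the 9286 genes of at least 5 CPM, the differences under JQ1 and in DMSO had a Pearson correlation of 0.688 and a Spearman correlation of 0.449, given as a description across genes that share the 2 lines. A further 454 genes were called under JQ1 and not in DMSO, but in only 6 of these did the interaction pass. For the rest a difference between the media was not shown.

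The light chain genes held many of the largest line differences. Iglv1, a lambda variable gene (chromosome 16, 19085017 to 19085500, minus strand), stood at 431 and 433 CPM in the JQ1 libraries of line 1.1 and at 18.4 and 16.8 CPM in those of line 1.2. The difference was -4.62 ± 0.082 (log2 ± SE, edgeR adjusted p = 7.25e-23). Iglv2 stood at 15.9 and 18.5 against 0.70 and 1.24 CPM, a difference of -4.13 ± 0.22. Lambda genes did not all go this way. Iglc2, a lambda constant gene, was higher in line 1.2, with 10.9 and 11.1 CPM in line 1.1 and 24.2 and 25.9 CPM in line 1.2 (1.18 ± 0.11), and Iglv3, a low gene of at most 1.95 CPM under JQ1, was higher too (1.32 ± 0.36), a call that none of the 4 fits with a JQ1 library left out kept.

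Kappa transcripts were higher in line 1.2. Igkc, the kappa constant gene (chromosome 6, 70726435 to 70726966, plus strand), stood at 497 and 527 CPM in line 1.1 and at 1474 and 1489 CPM in line 1.2, a difference of 1.53 ± 0.048 (log2 ± SE, edgeR adjusted p = 1.63e-17). Igkv12-46 had 2 reads in each line 1.1 library and 239 and 228 reads in those of line 1.2, a ratio of 119 with an exact 95% interval of 46.2 to 438 that covers counting error only. It lies 961.4 kb upstream of Igkc. The Igkv3 family lies nearer, 22.3 to 207.6 kb upstream of the constant gene and on the same strand. All 9 of its genes in the file were tested and 8 were higher in line 1.2. Igkv3-4 had the most reads of them, with 95.1 and 92.3 CPM in line 1.1 and 412 and 390 CPM in line 1.2 (2.10 ± 0.057). Igkv3-3 differed by 3.88 ± 0.15, Igkv3-5 by 3.13 ± 0.16, Igkv3-7 by 2.74 ± 0.24 and Igkv3-12 by 2.47 ± 0.17. Igkv3-2 was called at 1.71 ± 0.48 but kept its call in 1 of the 4 such fits, and Igkv3-1 was not called.

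The joining genes between them and Igkc were not called. Igkj1 came closest and went the other way from Igkc, at 6.69 and 5.29 against 4.14 and 3.55 CPM. Its difference was -0.65 ± 0.20 (log2 ± SE, edgeR adjusted p = 0.0501). The 5 Igkj genes summed to 37.0 and 36.6 CPM in line 1.1 and to 30.4 and 34.0 CPM in line 1.2. Of 24 variable genes of all loci that passed the filter, 12 were higher and 2 lower. The members that passed had reads in at least one line, so this count is no measure of the 281 variable genes in the file. The heavy chain differed little. Ighm differed by 0.21 ± 0.041, Ighd by 0.31 ± 0.093 and the variable gene Ighv10-1, at 188 to 223 CPM, by 0.21 ± 0.051. All 3 heavy chain calls were lost when some JQ1 library was left out. Of 175 heavy chain variable genes in the file, 4 averaged 0.5 CPM or more under JQ1. Ighv10-1 was the highest of them in both lines. Whether the lines share a heavy chain rearrangement was not tested. In DMSO the light chain differences of Iglv1 (-3.99), Igkc (1.41) and Igkv3-4 (2.42) had the same direction as under JQ1. The interaction was called for Iglv1 (-0.63) and not for Igkc or Igkv3-4. Reads of near-identical V genes may have been split or dropped by the counting, so the levels of single V genes are uncertain to that extent.

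**Figure D1:**
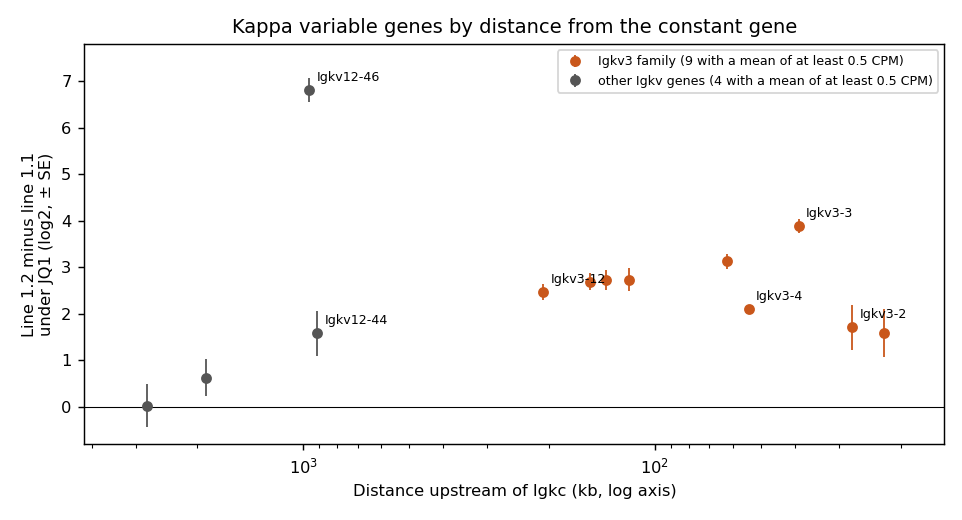
Line difference under JQ1 (log2, line 1.2 minus line 1.1, bars ± SE) of 13 kappa variable genes, those of 17 tested that averaged 0.5 CPM or more under JQ1, by distance upstream of Igkc in kb on a log axis, with 1 point per gene. The 9 Igkv3 genes lie within 207.6 kb of Igkc and all had values above 0, while Igkv12-46 at 961.4 kb had the largest difference.

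Plxnc1 had the largest difference of any gene outside the antigen receptor loci with reads in every library. It encodes plexin C1, a semaphorin receptor (chromosome 10, 94790866 to 94944835). Plxnc1 stood at 453 and 446 CPM in line 1.1 and at 4.84 and 5.41 CPM in line 1.2, which is 87.5-fold (log2 -6.45 ± 0.079, edgeR adjusted p = 2.15e-26). The libraries of the lines were far apart. Of the other 11 semaphorin and axon guidance genes tested only Plxna3 was called, at -0.76 ± 0.17, and it lost its call without line 1.1 JQ1 replicate 2 or without line 1.2 JQ1 replicate 1. The 3 tested genes within 200 kb of Plxnc1 were not called and lay between -0.09 and 0.28.

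Other genes were low in line 1.2. Hadh, which encodes a mitochondrial enzyme of fatty acid oxidation, stood at 12.97 and 13.04 CPM against 1.32 and 1.596 CPM. Mical3, a regulator of the actin cytoskeleton, stood at 11.6 and 11.9 against 1.32 and 1.68 CPM. Sox13, a transcription factor of the SOX family, stood at 11.7 and 13.6 against 1.32 and 2.13 CPM. Their log2 differences were -3.15 ± 0.20, -2.95 ± 0.21 and -2.87 ± 0.20. In each case both libraries of line 1.2 were far below both of line 1.1, and the difference in DMSO was of like size (-2.85, -3.06 and -2.53). No tested gene within 200 kb of Mical3 or Sox13 was called.

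Bahcc1, a chromatin protein gene on chromosome 11, was lower in line 1.2, as were some of its neighbours. It stood at 57.8 and 57.5 CPM in line 1.1 and 11.3 and 10.5 CPM in line 1.2 (-2.41 ± 0.095). The noncoding 2900052L18Rik, 1.4 kb away, stood at 1.98 and 3.56 against 0.53 and 0.44 CPM, and Gm11772, which lies within Bahcc1 on the other strand, at 0.50 and 1.09 against 0.088 and 0.089 CPM. Actg1, the gamma actin gene 53.4 kb away, was lower as well (-0.48 ± 0.043), while Oxld1, 164.3 kb away, was higher (1.15 ± 0.34) and 12 more of the 16 tested neighbours were not called. The calls of Gm11772 and Oxld1 were lost in each of the 4 fits without a JQ1 library. Whether the counting used the strand is not given in the sources used here, so reads of these overlapping genes cannot be told apart.

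Of the 15 genes with the largest negative line differences by the naming rule, 8 remain. They include Nes, the intermediate filament gene nestin (34.9 and 39.8 against 10.0 and 11.4 CPM, -1.80). Ttc21b, a gene of transport in cilia (-1.32), and the metallothionein gene Mt1 (-1.29) came next. Padi2, which converts arginine to citrulline in proteins, followed (79.2 and 84.1 against 38.2 and 36.5 CPM, -1.13). The others were the calcium channel gene Cacna1f (-1.09), Znrd1, a subunit of RNA polymerase I (-1.04), the amino acid transporter gene Slc43a1 (-1.04) and Ccdc88a, which encodes girdin (-1.03). All 8 were stable and all 8 were also lower in DMSO. Rtn4rl2, 8.3 kb from Slc43a1, was lower too (-0.85 ± 0.21).

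Bcl2, which encodes the founding inhibitor of apoptosis, was 6.002-fold higher in line 1.2. It stood at 13.8 and 14.2 CPM in line 1.1 and at 87.4 and 80.8 CPM in line 1.2 (2.59 ± 0.082, edgeR adjusted p = 1.86e-17). In DMSO the difference was 2.59, and the interaction did not pass. The 3 tested neighbours within 200 kb lay between -0.20 and -0.04 and were not called. Of 12 BCL2 family genes tested, the other call was Bmf, a BH3-only gene (0.70 ± 0.17), which no fit without a JQ1 library kept.

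Rbm34, an RNA-binding protein of the nucleolus, stood at 220 and 213 CPM in line 1.1 and at 1160 and 1200 CPM in line 1.2 (2.45 ± 0.047, edgeR adjusted p = 2.65e-22). The snoRNA gene Gm26397, 2.2 kb away on the same strand, was higher with it, with 5.54 and 6.38 CPM in line 1.1 and 29.0 and 28.1 CPM in line 1.2 (2.26 ± 0.12). Also higher were Daam1, a formin of Wnt signalling (5.12 and 5.20 against 26.8 and 25.3 CPM), Smim10l1 (1.65 and 2.01 against 10.3 and 8.07 CPM) and Ebf3, a relative of the B lineage factor EBF1 (10.6 and 10.8 against 44.5 and 45.7 CPM). Their differences were 2.33 ± 0.13, 2.33 ± 0.23 and 2.08 ± 0.095, with similar values in DMSO of 1.96, 2.35 and 2.19. Ak4, an adenylate kinase of mitochondria, was higher by 1.68 ± 0.15.

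On-off differences were rare. By the rule of under 0.5 CPM in both libraries of one line and at least 5 CPM in both of the other, only Igkv12-46 and Ppp1r1c qualified. Ppp1r1c, an inhibitor subunit of protein phosphatase 1, had 0 reads in both line 1.1 libraries and 57 and 75 reads in those of line 1.2, at least 22.4-fold higher against a floor of 3 reads per library. In DMSO it stood at 0.81 and 0.66 CPM in line 1.2 and at 0 in line 1.1. Pvr missed that rule at 4.21 and 3.65 CPM in line 1.1 (51 and 40 reads) against 0 and 1 read in line 1.2, a ratio of 89.3 with an exact 95% interval of 15.6 to 3570.

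**Figure D2:**
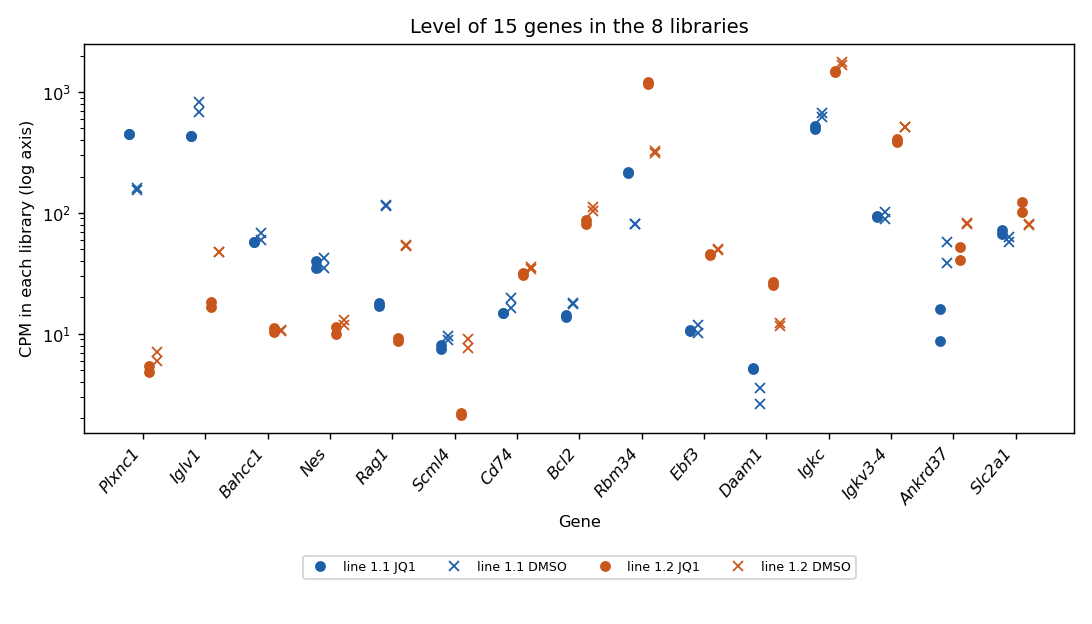
CPM (log axis) of 15 genes in each of the 8 libraries, blue for line 1.1 and orange for line 1.2, with circles for JQ1 and crosses for DMSO. Under JQ1 the circles of the lines do not overlap for any of the 15 genes, as for 53.6% of all genes tested. Plxnc1 is at 453 and 446 CPM against 4.84 and 5.41 CPM, and Scml4 separates the lines under JQ1 but not in DMSO.

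B cell receptor genes that were called were higher in line 1.2, with the exception of Cd38. Of 35 receptor chains, coreceptors, kinases and adaptors tested, the light chains Igkc and Iglc2 included, 16 were higher and 1 lower, with a median of 0.181 against 0.0055 over all genes. Beside Igkc and Iglc2, stable differences included those of Ptpn6, the phosphatase SHP-1 that dampens receptor signalling (51.5 and 54.0 against 90.5 and 81.7 CPM, 0.71 ± 0.071), the inhibitory coreceptor Cd22 (0.57 ± 0.070), the tetraspanin Cd37 (0.35 ± 0.048) and the signalling chain Cd79b (0.24 ± 0.046). The lower gene was Cd38, an ectoenzyme, at -0.39 ± 0.12, a call that was not stable. Without line 1.1 JQ1 replicate 1, 7 of the 17 calls remained, and with the Gm42418 covariate 7 genes were higher and 0 lower.

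Among 31 regulators of B lineage identity 7 were higher and 3 lower, with a median of 0.052. Myb, which drives early lymphoid growth, stood at 93.3 and 101 against 138 and 131 CPM (0.47 ± 0.063), Ikzf3, which encodes Aiolos, at 99.0 and 100.5 against 121 and 122.6 CPM (0.29 ± 0.051), and Ets1 was higher by 0.27 ± 0.046. All 3 were stable. Ikzf1, which encodes Ikaros, was higher by 0.26 ± 0.050 and lost its call without line 1.1 JQ1 replicate 1 or without line 1.2 JQ1 replicate 1. Scml4, a Polycomb-like gene of lymphocytes, stood at 8.10 and 7.57 against 2.20 and 2.13 CPM (-1.85 ± 0.21). Zbtb32, a repressor, differed by -1.23 ± 0.23 and Id3, an inhibitor of E proteins, by -0.41 ± 0.080. Without line 1.1 JQ1 replicate 1, 3 regulators were higher and 1 lower.

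Early B cell genes differed both ways. Rag1, a subunit of the recombinase that cuts antigen receptor genes, stood at 17.8 and 17.0 CPM in line 1.1 and at 9.24 and 8.78 CPM in line 1.2 (-0.95 ± 0.11, edgeR adjusted p = 2.43e-06). Its line difference in DMSO was -1.09, at levels of 114 and 116 against 54.8 and 53.1 CPM. Vpreb3, which assists receptor assembly, was higher by 0.29 ± 0.053, not stable. Il7r, the interleukin-7 receptor, was at 6.61 and 6.38 against 6.25 and 5.41 CPM and did not differ by the test (-0.16 ± 0.17, edgeR adjusted p = 0.662). In DMSO it did (-0.38), at 115 and 124 against 88.8 and 95.3 CPM. The interaction for Il7r had an adjusted p of 0.787 in the same edgeR test, so a change of its line difference with the drug was not shown.

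Antigen presentation genes were higher in line 1.2 where they were called. For MHC class I, 7 of 24 tested genes were higher and 0 lower, with a median of 0.306. Tap1, a subunit of the peptide transporter, stood at 18.4 and 16.9 against 29.3 and 25.9 CPM (0.64 ± 0.097). The class I heavy chains H2-D1 (194 and 191 against 240 and 236 CPM) and H2-K1 (189 and 176 against 226 and 225 CPM) differed by 0.31 ± 0.047 and 0.30 ± 0.049. These 3 were stable. Nlrc5, the transactivator of class I genes, was higher by 0.63 ± 0.12 and lost its call without line 1.1 JQ1 replicate 1 or line 1.2 JQ1 replicate 1. Without line 1.2 JQ1 replicate 1, 3 of the 7 calls remained.

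For MHC class II, 5 of 12 tested genes were higher. Cd74, the invariant chain, stood at 14.95 and 14.95 against 31.6 and 30.8 CPM (1.06 ± 0.10, edgeR adjusted p = 5.82e-08) and was stable, while the other 4 calls were not. They include H2-Aa at 0.33 and 0.18 against 1.41 and 0.98 CPM, and H2-Eb1 with 1 and 0 reads against 9 and 13. Of 25 interferon response genes 1 was higher and 0 lower, with a median of 0.06 (Dtx3l, 0.42 ± 0.13, not stable).

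Of 18 checkpoint and costimulatory genes, Pvr, the nectin-like ligand of the receptors DNAM-1 and TIGIT, was lower in line 1.2, and Ulbp1, a ligand of NKG2D, was higher (14.5 and 14.7 against 21.5 and 20.1 CPM, 0.51 ± 0.11). The Ulbp1 call was lost without line 1.1 JQ1 replicate 1 or line 1.2 JQ1 replicate 1. Cd274, which encodes the checkpoint ligand PD-L1 named in the title of the series, was low in both lines under JQ1, at 0.99 and 0.64 CPM in line 1.1 and 1.41 and 0.98 CPM in line 1.2. The ranges of the lines overlap, and the difference of 0.53 ± 0.43 did not pass (edgeR adjusted p = 0.528). Among 26 cytokine, chemokine and homing receptors, the chemokine receptor Ccr2 was the stable call, at 0.66 and 0.64 against 4.58 and 3.64 CPM (2.64 ± 0.33).

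A part of the genes of glycolysis and of the hypoxia response was higher in line 1.2, and most glycolytic enzymes were not called. Under low oxygen the factor HIF is stabilised and activates glucose transporters, glycolytic enzymes and its own inhibitors through the hypoxia response element, whose core is ACGTG. Of 34 genes tested, 14 were higher and 0 lower, with a median of 0.166, and 9 of the 14 were stable. The enzymes Aldoa (0.10), Gapdh (0.14), Eno1 (-0.01), Pkm (-0.004), Pgk1 (-0.06) and Ldha (-0.12) were among the 20 not called, as was Hif1a itself (-0.02). Ankrd37, a HIF target, stood at 8.76 and 16.0 CPM in line 1.1 and at 51.8 and 40.7 CPM in line 1.2 (1.92 ± 0.18, edgeR adjusted p = 5.22e-08). Slc16a3, the lactate exporter MCT4, stood at 5.78 and 8.30 against 27.6 and 19.3 CPM (1.75 ± 0.23). The replicates of both genes spread widely, and both libraries of line 1.2 were above both of line 1.1.

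The glucose transporter Slc2a1 stood at 66.9 and 72.2 against 122.9 and 103 CPM (0.70 ± 0.072) and Hk2, which traps glucose in the cell, at 117 and 127 against 184 and 166 CPM (0.52 ± 0.062). Ddit4, an inhibitor of mTOR, was higher by 0.94 ± 0.077, the collagen hydroxylase P4ha1 by 0.69 ± 0.082, the histone demethylase Kdm3a by 0.67 ± 0.074 and the oxidoreductase Ero1l by 0.65 ± 0.069. Egln3, an oxygen sensor that marks HIF for decay, had 0 and 5 reads in line 1.1 and 30 and 33 reads in line 1.2, a ratio of 12.8 with an exact 95% interval of 5.22 to 40.9. Of the same 34 genes 10 were higher in DMSO and 0 lower, with a median of 0.124.

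Promoters of these genes were read for the ACGTG core in the 250 bases before the start of each gene, on either strand, from RefSeq sequence of build GRCm38.p6. Of the 34 genes 31 had an entry. The core was present in 9 of 13 promoters of the genes that were higher, in 6 of 18 of those not called and in 22.9% of all 8529 promoters of tested genes. Among all 286 promoters of genes higher in line 1.2 it was present in 24.8%. The E-box CACGTG, which MYC binds, contains this core, and was present in 1 of the 13 promoters (Bnip3) and in 8.92% of all. RefSeq places the start of Ankrd37 5.86 kb and that of Slc16a3 0.59 kb inside the GENCODE gene, so these stretches precede the RefSeq start only, while the starts of the other genes shown differ by at most 34 bases. A match is a description of the sequence and does not show a bound site. Shown are the promoters of 5 of the 9 higher genes that hold the core, so these stretches were picked among matches. Ddit4, with a larger difference (0.94) than P4ha1 (0.69), holds a match and is not shown. Each match to ACGTG or to its reverse complement is in capitals.
Ankrd37, chr8:45999851-46000100, minus strand: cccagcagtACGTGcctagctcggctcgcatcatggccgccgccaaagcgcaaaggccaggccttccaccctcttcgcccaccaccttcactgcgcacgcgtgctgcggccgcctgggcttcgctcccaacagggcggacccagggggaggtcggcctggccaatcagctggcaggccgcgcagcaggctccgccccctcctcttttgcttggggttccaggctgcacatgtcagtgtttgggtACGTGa
Slc16a3, chr11:120948817-120949066, plus strand: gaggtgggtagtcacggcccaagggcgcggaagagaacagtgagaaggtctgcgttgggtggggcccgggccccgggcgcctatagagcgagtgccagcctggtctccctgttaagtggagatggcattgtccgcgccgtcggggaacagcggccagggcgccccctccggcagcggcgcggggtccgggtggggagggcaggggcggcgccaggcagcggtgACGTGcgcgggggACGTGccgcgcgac
Slc2a1, chr4:119108495-119108744, plus strand: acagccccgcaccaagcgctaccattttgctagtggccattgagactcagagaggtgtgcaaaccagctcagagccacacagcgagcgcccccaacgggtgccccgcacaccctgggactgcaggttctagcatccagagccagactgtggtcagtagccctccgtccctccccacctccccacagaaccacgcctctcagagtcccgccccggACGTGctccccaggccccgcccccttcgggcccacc
P4ha1, chr10:59323046-59323295, plus strand: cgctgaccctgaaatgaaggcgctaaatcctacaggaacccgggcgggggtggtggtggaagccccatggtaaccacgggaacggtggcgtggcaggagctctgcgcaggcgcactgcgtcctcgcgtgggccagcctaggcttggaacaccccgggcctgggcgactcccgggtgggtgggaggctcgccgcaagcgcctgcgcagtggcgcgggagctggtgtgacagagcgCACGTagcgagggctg
Egln3, chr12:54203875-54204124, minus strand: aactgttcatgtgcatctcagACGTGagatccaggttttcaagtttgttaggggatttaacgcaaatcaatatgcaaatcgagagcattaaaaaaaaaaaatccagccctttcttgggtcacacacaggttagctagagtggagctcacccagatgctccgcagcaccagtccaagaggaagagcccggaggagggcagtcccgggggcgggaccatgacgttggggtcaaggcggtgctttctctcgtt

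The stretches of Ankrd37 and Slc16a3 hold 2 matches each, and those of Slc2a1, P4ha1 and Egln3 hold 1 each. Hk2, Ddit4, Egln1 and Bnip3 also hold a match, while Kdm3a, Mxi1, Pfkl and Pfkp, higher in line 1.2 too, hold none. Ero1l, which was higher in line 1.2 as well, is named without sequence.

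Cholesterol synthesis genes were higher in line 1.2 by small amounts and in large number. The factor SREBP2 activates these genes when sterol in the membrane is low. Of 27 tested genes 15 were higher and 0 lower, 26 of the 27 had positive values, and the median was 0.268. Hmgcs1, an early enzyme of the pathway, stood at 122 and 126 against 170 and 149 CPM (0.36 ± 0.062). Sqle, which oxidises squalene, stood at 137 and 139 against 187 and 174 CPM (0.39 ± 0.057). The sterol carrier Stard4 was higher by 0.56 ± 0.073, and the desaturases Scd2 and Scd1, which serve fatty acid synthesis, by 0.66 ± 0.051 and 0.37 ± 0.056. Both libraries of line 1.2 were above both of line 1.1 in all of these. In DMSO 13 of the 27 were higher and 0 lower, with a median of 0.228.

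Between 7 and 12 of the 15 calls remained when a JQ1 library was left out, the fewest without line 1.2 JQ1 replicate 1, and 6 were stable. With the Gm42418 covariate 13 were higher, and with GC content corrected 14 were. Of the 15 genes 7 had a promoter entry, and the sterol regulatory element TCACNCCAC was found on either strand in 1 of them, against 0.915% of all promoters. It is shown with the match in capitals.
Hmgcs1, chr13:119690101-119690350, plus strand: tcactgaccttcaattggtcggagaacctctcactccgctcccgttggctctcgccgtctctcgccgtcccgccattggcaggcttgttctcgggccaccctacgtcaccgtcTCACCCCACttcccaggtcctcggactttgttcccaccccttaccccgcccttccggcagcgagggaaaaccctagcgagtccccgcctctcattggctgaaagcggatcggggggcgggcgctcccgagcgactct

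Genes of the mitochondrial genome were lower in line 1.2. Of 21 tested 12 were lower and 0 higher, with a median of -0.236 under JQ1 and of -0.051 in DMSO, where 5 were lower. Subunits of respiratory complex I led. mt-Nd1 stood at 6341 and 6548 CPM in line 1.1 and at 4786 and 5254 CPM in line 1.2 (-0.36 ± 0.044), mt-Nd2 differed by -0.40 ± 0.050, mt-Nd4l by -0.41 ± 0.048 and mt-Nd6 by -0.35 ± 0.047. mt-Co3, of complex IV, differed by -0.16 ± 0.042 and was not stable. Together the genes of the list made up 53538 and 55723 CPM in line 1.1 and 46108 and 48965 CPM in line 1.2. Between the lines Gm42418 differed the other way (475 and 493 against 1296 and 2644 CPM). Within each line the library with more Gm42418 had the higher mitochondrial sum. The part of Gm42418 in the result was not tested beyond the covariate fit. With Gm42418 as a covariate 10 were lower, and with GC content corrected 10 were lower and 1 higher, with a median of -0.154.

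Of 82 cytosolic ribosomal protein genes 10 were higher and 0 lower (12.2% called, against 6.4% over all genes), with a median of 0.076. Rps23 (0.21 ± 0.047) and Rpl32 (0.19 ± 0.043) had the smallest p, and 0 of the 10 were stable. In DMSO 25 were higher and 0 lower, with a median of 0.109.

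**Figure D3:**
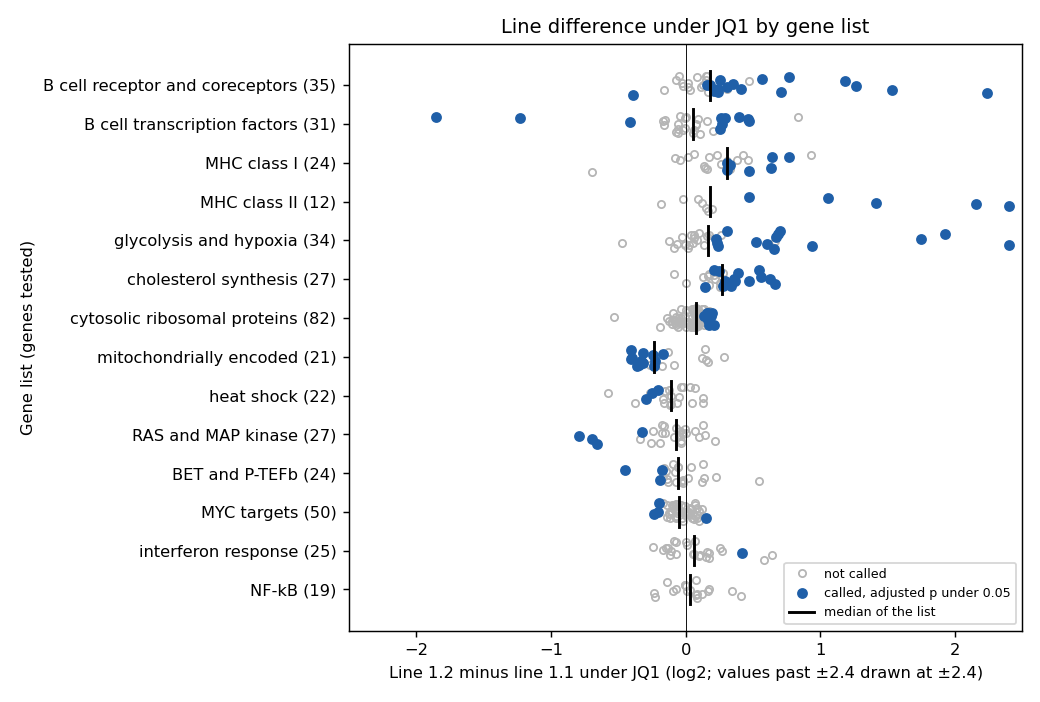
Line difference under JQ1 (log2, line 1.2 minus line 1.1) of each tested member of 14 gene lists, filled where called, with the list median as a bar. Called members lie to the right for antigen receptor (apart from Cd38), MHC, glycolysis and cholesterol genes and to the left for mitochondrial genes, and values past ±2.4 are drawn at the edge.

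Cell cycle genes of G1 differed both ways. Cdkn1b, which encodes the inhibitor p27, stood at 74.3 and 78.2 against 109 and 103 CPM (0.48 ± 0.065). The cyclins Ccne1 (61.0 and 59.4 against 45.6 and 44.7 CPM, -0.42 ± 0.066) and Ccne2 (116 and 110 against 81.8 and 91.1 CPM, -0.39 ± 0.059), which drive entry into S phase, were lower. These 3 were stable, and a total of 4 of the 14 genes were called. Of 40 genes of replication and mitosis 1 was lower (Rrm2, -0.20 ± 0.043, not stable) and 0 higher, with a median of -0.006.

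Myc itself was at 2355 and 2318 CPM in line 1.1 and 2131 and 2194 CPM in line 1.2, and the difference of -0.11 ± 0.050 did not pass (edgeR adjusted p = 0.199). It passed in the fits without a line 1.1 DMSO library, in both fits of the 4 JQ1 libraries alone, with the Gm42418 covariate (-0.32) and after GC correction (-0.16). Of 50 MYC target genes 1 was higher and 3 were lower, with a median of -0.049, and 0 of these calls were stable. The share of MYC targets called was 8.0%, against 6.4% over all genes. Of 24 BET and P-TEFb genes, which include the targets of the drug, 0 were higher and 3 lower (12.5%), with a median of -0.057. They were the elongation factors Ell2 (17.8 and 18.1 against 12.3 and 13.9 CPM, -0.45 ± 0.12) and Aff4 (-0.18 ± 0.051) and the cyclin Ccnt1 (-0.19 ± 0.052). None of the 3 was stable, and 0 were called by DESeq2.

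In the p53 pathway 11.1% of the genes tested were called, against 6.4% over all genes. Trp53 was at 182 and 191 against 176 and 186 CPM and was not called (-0.04 ± 0.049, edgeR adjusted p = 0.685). Of 27 genes 2 were higher, Ddit4 and Ccng2, an atypical cyclin (0.60 ± 0.083), and 1 was lower. The lower gene was Plk2, with 17 and 10 reads in line 1.1 and 1 and 0 reads in line 1.2, a ratio of 26.5 with an exact 95% interval of 4.37 to 1080. Cdkn2a had 0 reads in all 4 JQ1 libraries, so that by counting error alone a level of up to 0.243 to 0.268 CPM (3 reads) could be missed.

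Inhibitors of the MAP kinase pathway were lower in line 1.2. Of 27 genes of RAS and MAP kinase signalling 4 were lower and 0 higher, with a median of -0.07. This was 14.8% of them, against 6.4% over all genes. Dusp5, a phosphatase that inactivates ERK, stood at 28.5 and 32.9 against 19.5 and 19.3 CPM (-0.66 ± 0.094). Spred2, which blocks RAF activation, stood at 14.5 and 16.0 against 9.95 and 8.87 CPM (-0.69 ± 0.13). Dusp5 and Spred2 were stable. Of 24 immediate early genes 1 was higher and 2 lower (12.5% called). The lower genes included Jund, a subunit of AP-1 (368 and 356 against 302 and 287 CPM, -0.30 ± 0.054).

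Heat shock protein genes were lower where they were called, 3 of 22 with 0 higher and a median of -0.113. The share called was 13.6%, against 6.4% over all genes. Hspa8, the constitutive HSP70, stood at 694 and 662 against 543 and 598 CPM (-0.25 ± 0.048) and its partner Dnaja1 at 306 and 310 against 239 and 263 CPM (-0.30 ± 0.051). The third was Hspe1, a chaperonin of mitochondria (-0.21 ± 0.057). Without line 1.2 JQ1 replicate 1 none of the 3 remained, and without a line 1.1 DMSO library 10 were lower. Of 19 NF-kB genes and 15 lymphocyte G protein-coupled receptors 0 were called.

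Genes that are expressed from one parental allele in many tissues were called in 4 of 15 cases, all higher (26.7%, against 6.4% over all genes). For the chromatin regulators and histone genes given below the shares called were 10.9% and 10.7%. Dlk1, a Notch-like surface protein of progenitors, stood at 42.3 and 43.6 against 70.0 and 67.6 CPM (0.68 ± 0.078), and Igf2r, a receptor that clears IGF2, at 10.2 and 8.48 against 18.7 and 18.8 CPM (0.997 ± 0.13). Both were stable. Of 46 chromatin regulators 4 were higher and 1 lower, and Hdac7, a class II histone deacetylase, was the stable call, at 34.3 and 35.3 against 54.2 and 51.0 CPM (0.60 ± 0.085). Of 28 histone genes 3 were higher, with the smallest p for the linker histone H1f0 (0.31 ± 0.060) and larger values for Hist1h3h (1.22) and Hist1h2bl (0.53), and none of the 3 was stable.

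T cell markers were called in both directions. Cd6, a receptor of T cells that some B cells carry, had 51 and 56 reads in line 1.1 and 2 and 7 in line 1.2, a ratio of 11.7 with an exact 95% interval of 5.92 to 26.2. Bcl11b, a T lineage factor, had 2 and 3 reads in line 1.1 and 24 and 28 in line 1.2, a ratio of 10.6 with an interval of 4.26 to 34.0. Of the 21 T cell markers in the file 11 had 0 reads in all 4 JQ1 libraries, Cd3e, Cd3g and Cd4 among them. The others had reads in at least 1 of these libraries.

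The last comparison asked which line differences under JQ1 differ from those without drug. The interaction passed for 14 of 12413 genes (0.113%), 10 with a higher value under JQ1 (0.0806%) and 4 with a lower value (0.0322%). At an unadjusted p of 0.05 there were 1000. The count was 8 to 459 when 1 library was left out, with 459 without line 1.1 DMSO replicate 1, 44 without line 1.1 DMSO replicate 2, 8 without line 1.1 JQ1 replicate 1 or line 1.2 DMSO replicate 1, and 9 without line 1.2 JQ1 replicate 2.

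Scml4 did not pass in DMSO (8.89 and 9.66 against 9.12 and 7.62 CPM) and was lower in line 1.2 under JQ1, with an interaction of -1.71 (edgeR adjusted p = 0.00177). Adam19, a membrane protease, was at 259 and 263 against 282 and 290 CPM in DMSO and at 81.6 and 94.2 against 152 and 137 CPM under JQ1, so that the line difference went from 0.13 to 0.72 (interaction 0.59, edgeR adjusted p = 0.00107). Tspoap1, an adaptor gene that both lines induce, went the other way. In DMSO it stood at 6.99 and 8.03 against 16.3 and 18.5 CPM, and under JQ1 at 252 and 237 against 292 and 265 CPM, so that a line difference of 1.23 became 0.19 (interaction -1.04, edgeR adjusted p = 0.000719).

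For Plxnc1 the difference widened from -4.60 to -6.45, since the gene rose with the drug in line 1.1 (156 and 161 CPM in DMSO) and its change in line 1.2 (5.96 and 7.04 CPM in DMSO) did not pass. Rbm34 went from 1.98 to 2.45 and its neighbour Gm26397 from 0.47 to 2.26. Ankrd37 went from 0.79 to 1.92 and Bhlhe41, a circadian repressor, from 0.18 to 0.64 (130 and 147 against 222 and 207 CPM under JQ1). Both lost the interaction call in several fits with a library left out, without line 1.1 JQ1 replicate 1 among them. Iglv1 went from -3.99 to -4.62 and lost the call without any one of the JQ1 or line 1.2 DMSO libraries.

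The other 5 genes were Gm42418, Mir6240 and the small RNA genes Gm24270, Gm24245 and Gm24187. All were lower in line 1.2 in DMSO by value and higher under JQ1, and Gm24245, Gm24187 and Gm42418 were called in opposite directions in the media. Gm42418 was at 361 and 977 CPM in line 1.1 and 383 and 341 CPM in line 1.2 in DMSO. Without line 1.2 JQ1 replicate 2, the interactions of Mir6240, Gm24270, Gm24245 and Gm24187 were no longer called, while that of Gm42418 was.

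**Figure D4:**
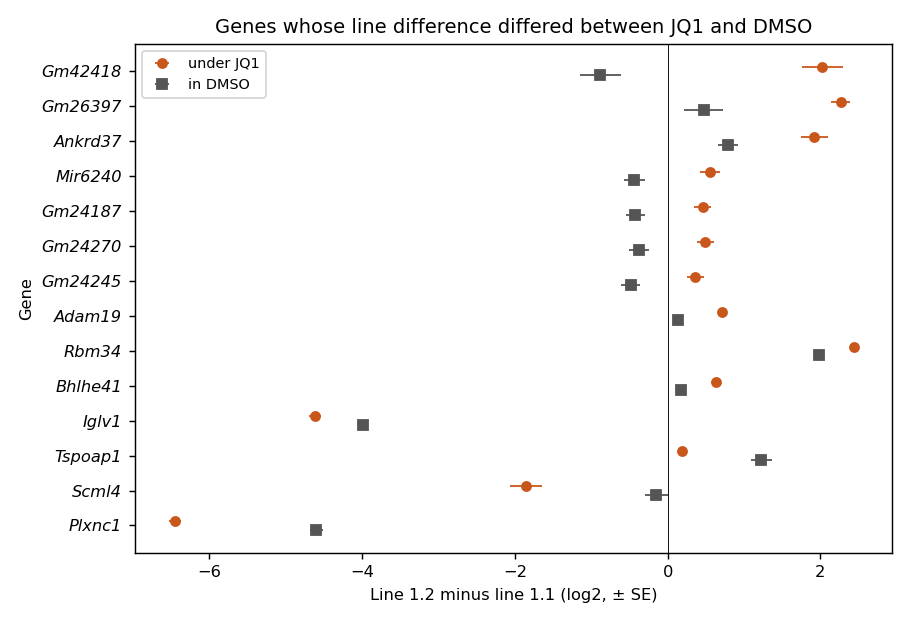
Line difference (log2, line 1.2 minus line 1.1, bars ± SE) of the 14 genes with a called interaction, under JQ1 (circles) and in DMSO (squares). Plxnc1, Scml4 and Iglv1 are lower in line 1.2 under JQ1 than in DMSO, the difference of Tspoap1 shrinks from 1.23 to 0.19, and 5 short or repeat-derived genes change sign.

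Chromosome and base composition were looked at over all genes. Median differences of the autosomes lay between -0.0437 and 0.0379, and of windows of 31 neighbouring genes between -0.134 and 0.134 over 8620 windows. The difference was larger at higher GC content of the transcript. In 5 equal classes of 9242 genes by GC content its median went from -0.063 at the lowest GC content to 0.054 at the highest, against 0.009 and -0.024 in DMSO. With this trend taken out of each library, an alternative chosen after seeing the data, 747 genes were called, 612 of them among the 795, with 368 higher and 379 lower.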

How the data were processed

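RNA was measured in 8 libraries, 4 groups of 2. GRCm38 (mm10), HTSeq, TopHat with Bowtie2, cutadapt 1.7, FastQC and limma are listed in the submitters' processing notes. Their settings were not given in the sources used here. The deposited values are whole-number counts of reads per Ensembl gene, not normalised. The 5 HTSeq summary lines were left out (12.3 to 14.4% of reads in no gene, 1.54 to 1.67% ambiguous). Symbols (for 42462 of 43629 genes) and positions came from GENCODE M21 (GRCm38).

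In R 4.3.3, edgeR 4.0.16 scaled libraries by TMM, kept 12413 genes by filterByExpr (minimum count 10, minimum total 15) and fitted a mean for each of 4 groups over the 8 libraries (residual degrees of freedom 4). Contrasts were tested two-sided by quasi-likelihood, with Benjamini-Hochberg adjustment over all genes and a threshold of 0.05. Differences are log2, line 1.2 minus line 1.1, with SE as the difference over the root of F. Values are relative to each library's total. Intervals of read ratios are exact binomial at 95% and floors are 3 reads per library.

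The genes named are the 15 largest differences each way (mean of at least 5 CPM over the JQ1 libraries, lines not overlapping, no clone or pseudogene name), on-off genes, genes with a called interaction, up to 4 members of each of 39 lists with the smallest p, and 10 fixed genes. Further list members, neighbours and low-count genes were named after their values were seen. The members and lists were chosen with earlier results of these data known. Alternatives were other scalings, filters, thresholds and tools (DESeq2 1.42.0, limma-voom 3.58.1), a Gm42418 covariate, a replicate block, subsets of libraries and, added after seeing the data, a GC correction. The edgeR fit was tested on simulated data. Some genes that the naming rule selects are not reported here.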

Additional observations from a re-analysis of the deposited data

Results flagged for a closer look

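These 14 genes had a line difference under JQ1 that differed from that in DMSO by the test of the interaction itself (edgeR, adjusted p under 0.05). The interaction (log2) was -1.852 for Plxnc1, -1.705 for Scml4, -1.042 for Tspoap1 and -0.6312 for Iglv1. It was 0.5881 for Adam19, 0.4694 for Rbm34, 1.792 for Gm26397, 1.131 for Ankrd37 and 0.4563 for Bhlhe41. Among short or repeat-derived genes it was 2.906 for Gm42418, 0.9898 for Mir6240, 0.8702 for Gm24270, 0.8485 for Gm24245 and 0.8805 for Gm24187.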

How the results depend on the processing

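Calls of the line difference under JQ1 numbered 795. Scaling, limma-voom, the filters, the GC correction and the replicate block (810) left this within 1.5 times. The number was 343 with the Gm42418 covariate, 370 at a threshold of 0.01, 327 with DESeq2, 74 when tested against 1.5-fold, 1635 with only the 4 JQ1 libraries, 1900 with these and a replicate block, and 281 to 1538 when 1 library was left out. For the line difference in DMSO the 840 calls became 376 at a threshold of 0.01, 306 with DESeq2, 87 when tested against 1.5-fold and 313 to 1318 when 1 library was left out. For the interaction of line and drug the 14 calls became 80 without a filter, 8 with at least 5 CPM in 2 libraries, 8 with the Gm42418 covariate, 26 with the replicate block, 7 at a threshold of 0.01, 8 with DESeq2, 2 when tested against 1.5-fold and 8 to 459 when 1 library was left out. The cause of these changes was not tested, beyond the fewer samples of the fits with a library left out, which leave 1 library in an arm whose spread is then taken from the other groups.

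Same-numbered libraries had deviations that correlated between -0.03 and 0.078, so no deviation shared by replicate number was seen. Whether same-numbered libraries were handled together is not given by the labels, and these values cannot decide it. The replicate block changed no call of the 141 named genes under JQ1. With the Gm42418 covariate the sign changed for Gm42418 under JQ1 (-6.842e-05), for the Gm42418 interaction (-1.459e-05), both by construction, and for Hspe1 under JQ1 (0.047). Of the 141 genes, 49 lost their call with this covariate, 35 with DESeq2, 11 with the GC correction and 26 to 48 without a JQ1 library. Depth limits statements on genes of a few reads, since 3 reads are 0.243 to 0.268 CPM in the JQ1 libraries.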
